A study of Ovis aries with 16 samples.

Results

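Expression of 4 genes was followed across the livers of fetal sheep: the amino acid transporters *SLC38A2* (ENSOARG00020003471), *SLC6A9* (ENSOARG00020002750) and *SLC7A1* (ENSOARG00020009646), and the stress-induced gene *NUPR1* (ENSOARG00020026084). They are 4 of the 26478 genes counted. They were selected from a supplementary gene table of the study, which lists genes called different between hypoxic and control livers in these same animals, and because each is a known target of the transcription factor ATF4. The differences between HOX and CON therefore chose the genes. Their values and the counts of calls in that comparison are given below as a description, and nothing is read from them. What that choice did not fix is how the 4 genes vary from liver to liver within a group, and between male and female fetuses.

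Amino acids enter cells through membrane carriers with different preferences. The product of *SLC38A2* carries small neutral amino acids such as alanine and glutamine together with sodium, that of *SLC6A9* carries glycine, and that of *SLC7A1* carries the cationic amino acids arginine, lysine and ornithine. When amino acids run short, when proteins misfold or when haem is lacking, kinases phosphorylate the initiation factor eIF2α, general translation slows and ATF4 is made, which turns on genes for amino acid uptake, amino acid synthesis and tRNA charging. *NUPR1* encodes a small chromatin-associated protein that is induced by cell stress, and it is one of the genes that ATF4 turns on. The late fetal liver is also a site of red cell formation, and developing red cells take up glycine for the first step of haem synthesis.

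PolyA-enriched RNA of 16 livers was sequenced, 1 library per liver, each from a separate Welsh Mountain fetus at 0.9 of gestation. The control group (CON) held 9 fetuses of normoxic pregnancies, 5 male and 4 female, and the hypoxic group (HOX) 7 fetuses of ewes kept in hypoxia for 30 days, 3 male and 4 female. The labels put collection at about day 130, and the methods of the study give a later day. Total counts per liver ranged from 23955166 to 33952503. Expression is given in CPM, the reads of a gene relative to the total of its library after scaling of the libraries, or as log2 CPM.

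HOX animal 1, a female, stood apart from the other libraries, with a score of −64.4 on the first principal component against −6.23 to 15.6 in the other 15 livers. The log2 fold changes of the 4 genes between HOX and CON over both sexes, and their Pearson coefficients in HOX, are given with and without it. As a check of the tissue label, the 14 hepatocyte genes that could be named, led by the fibrinogen chain *FGG*, summed to between 16098 and 33854 CPM per liver, and no gene of the list was at 0 reads in any liver. Their sum was 27535 ± 3177 CPM in CON (SD, *n* = 9) and 19982 ± 3130 in HOX (SD, *n* = 7), with 13 of the 14 genes lower in HOX and 1, *HGFAC*, higher. The genes of this list came from the same supplementary table, so the direction of that difference is not independent of how they were found. In whole liver RNA, fewer cells of a type and less RNA per cell cannot be told apart.

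Reads of *SLC38A2*, the carrier of small neutral amino acids, came to 7.16 CPM in the lowest CON liver, 13.5 at the median and 19.2 in the highest. In HOX the lowest liver had 13.7, the median was 22.8 and the highest had 62.9 CPM. The groups overlapped, with 5 of 7 HOX livers above the highest CON liver, and the low CON value was that of animal 6 and the high HOX value that of animal 1. The log2 fold change of HOX against CON was 0.92 (SE 0.268), and without HOX animal 1 it was 0.55 (SE 0.188). With that liver left out, the HOX mean was 20.7 ± 4.82 CPM (SD, *n* = 6) against 14.2 ± 3.72 in CON (SD, *n* = 9).

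Expression of *SLC6A9*, the glycine transporter, had a lowest value of 7.29, a median of 14.6 and a highest value of 24.8 CPM in CON. The corresponding values in HOX were 9.58, 21.9 and 60.9 CPM. Most HOX livers lay inside the CON range, and animals 4 and 7, at 60.9 and 33.97 CPM, were the 2 of 7 above it. HOX animal 1, the highest liver for *SLC38A2*, was the lowest HOX liver here. The log2 fold change was 0.75 (SE 0.329), and it was 0.90 (SE 0.305) without HOX animal 1 and 0.40 (SE 0.276) without HOX animal 4.

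For *SLC7A1*, the carrier of cationic amino acids, the lowest CON liver had 4.33 CPM, the median was 7.52 and the highest had 16.2. HOX livers had 5.91 CPM at the lowest, 16.7 at the median and 22.2 at the highest. In 4 of 7 HOX livers the value was above all CON livers, whereas HOX animal 5 lay below the CON median. The log2 fold change was 0.92 (SE 0.271), and 0.82 (SE 0.276) without HOX animal 1. This gene was the member nearest to the filter on low counts, which asked for at least 250 reads in at least 8 livers. It reached the minimum in 8 livers, 6 of them HOX and 2 CON, so it was tested mainly through the group in which it was higher. The liver just inside the minimum was CON animal 7 with 326 reads, and the one just outside was CON animal 9 with 208. *SLC6A9* reached the minimum in 14 livers, *SLC38A2* in 15 and *NUPR1* in 16.

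*NUPR1*, the chromatin-associated stress gene, was measured at 68.9 CPM in the lowest CON liver, 110.4 at the median and 189 in the highest. In HOX livers the lowest value was 51.8, the median 73.1 and the highest 100.1 CPM. The direction was the opposite of that of the transporters: each of the 7 HOX livers was under the mean of CON and 3 of 7 were under its lowest liver, with overlap in the others. The log2 fold change was −0.65 (SE 0.194), and −0.57 (SE 0.197) without HOX animal 1.

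**Figure D1:**
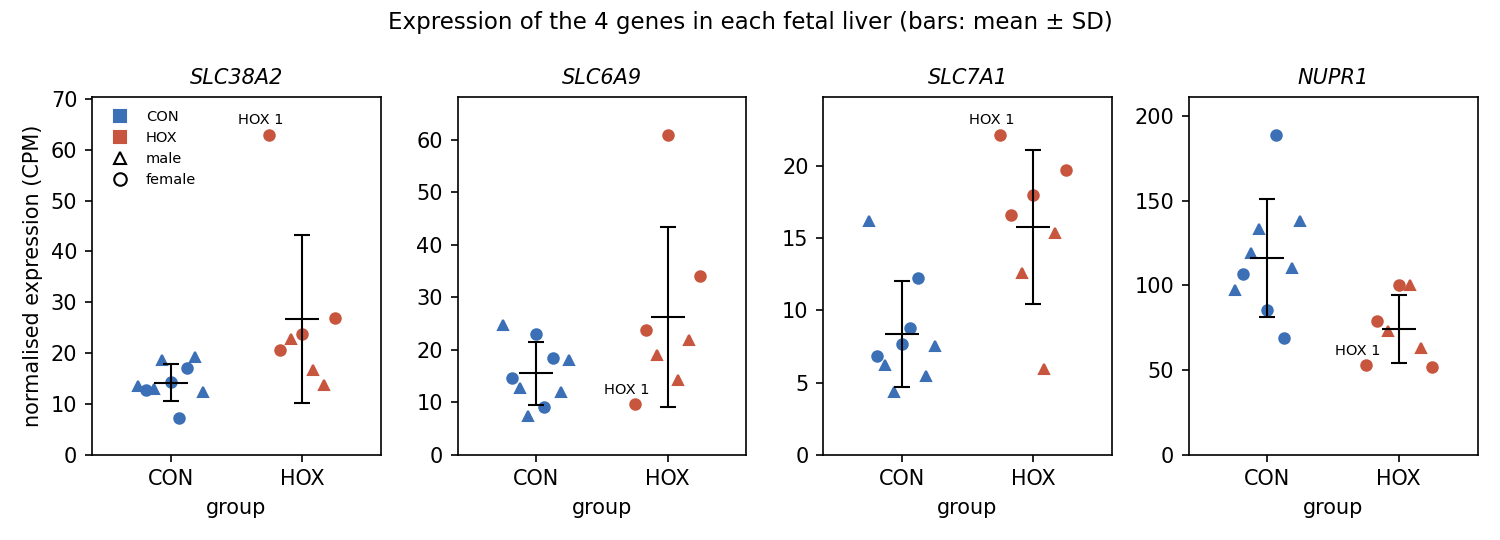
Normalised expression (CPM, linear axis from 0) of the 4 genes in each of 9 CON and 7 HOX livers. Triangles are male and circles female fetuses, the bars are mean ± SD, and HOX animal 1 is named. The groups overlap in each gene, and HOX animal 1 is the highest HOX liver for *SLC38A2* and *SLC7A1* and the lowest for *SLC6A9*.

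Seen over the 4 genes, 3 were higher and 1 lower in HOX, with a median log2 fold change of 0.83, against 0.01 over the 8580 genes tested, of which 4392 were above 0 and 4188 below. With edgeR at an adjusted *P* under 0.15, 0 of the 4 genes passed, beside 5 of 8580 genes in all (0.0583%), and 1022 genes had an unadjusted *P* under 0.05. With DESeq2 at the same threshold 3 of the 4 genes passed, *SLC6A9* being the exception, beside 237 of 8580 genes (2.76%). Without HOX animal 1, chosen after seeing the data, 4 of the 4 passed with DESeq2, beside 524 of 8576 genes (6.11%). With edgeR and without that liver, the adjusted *P* of the 4 genes lay between 0.210 and 0.212, over the threshold, and 11 of 8580 genes passed. The groups did not overlap in 0 of the 4 genes, beside 7 of the 8580 genes tested (0.0816%). Nothing is read from these counts, since the genes were chosen from this comparison.

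Some livers were at an extreme for more than 1 gene. CON animal 1 was the highest CON liver for both *SLC6A9* and *SLC7A1*, and CON animal 4 the lowest for both. CON animal 6, the lowest for *SLC38A2*, was the highest for *NUPR1*. HOX animal 5, the lowest HOX liver for *SLC7A1*, was the highest for *NUPR1*.

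Whether the genes moved together was tested as the correlation of log2 CPM between livers of 1 group, for 6 pairs in each of 2 groups, which makes 12 relations. No pair passed at a Benjamini-Hochberg adjusted *P* under 0.05, with Pearson's *r* or with Spearman's rho, and 2 of the 12 Pearson coefficients had an unadjusted *P* under 0.05 in the two-sided exact permutation test. Of the 12 Pearson coefficients, 5 were above 0. Coefficients given below without 2 livers, those farthest from the median, rest on 7 livers in CON and on 5 in HOX. The 2 coefficients with an unadjusted *P* under 0.05 were both in CON and involved *SLC6A9*. It varied with *SLC7A1* at *r* = 0.700 (exact permutation *P* = 0.0345, adjusted *P* = 0.278; Spearman rho = 0.717, exact permutation *P* = 0.0369; *n* = 9). Without CON animals 1 and 4 that *r* was 0.280, and with 1 liver left out it lay between 0.552 and 0.837. *SLC6A9* varied inversely with *NUPR1* at *r* = −0.671 (exact permutation *P* = 0.0463, adjusted *P* = 0.278; rho = −0.717, exact permutation *P* = 0.0369), and *r* was −0.733 without the same 2 livers.

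In HOX, the same pairs gave other values. For *SLC6A9* and *SLC7A1* the coefficient was *r* = 0.272 (exact permutation *P* = 0.510, adjusted *P* = 0.556; rho = 0.214, exact permutation *P* = 0.662; *n* = 7), 0.739 without HOX animal 1, −0.093 without HOX animal 5 and 0.917 without HOX animals 1 and 4. *SLC6A9* and *NUPR1* had *r* = 0.314 (exact permutation *P* = 0.498, adjusted *P* = 0.556; rho = 0.036, exact permutation *P* = 0.963), and *r* was 0.0048 without HOX animal 1, −0.140 without HOX animal 4, 0.622 without HOX animal 5 and −0.898 without HOX animals 1 and 4. The difference between the groups in these coefficients was not tested.

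*SLC38A2* and *SLC7A1* had *r* = −0.277 in CON (exact permutation *P* = 0.465, adjusted *P* = 0.556; rho = −0.350, exact permutation *P* = 0.359). It was −0.457 without CON animal 7, −0.088 without CON animal 4 and −0.168 without CON animals 6 and 8. In HOX *r* was 0.564 (exact permutation *P* = 0.189, adjusted *P* = 0.455), rho was 0.821 (exact permutation *P* = 0.0341, adjusted *P* = 0.147), and *r* was 0.474 without HOX animal 1 and 0.888 without HOX animals 1 and 6. *SLC38A2* and *SLC6A9* had *r* = 0.080 in CON (exact permutation *P* = 0.845, adjusted *P* = 0.845; rho = −0.050, exact permutation *P* = 0.912), but 0.445 without CON animal 4, −0.525 without CON animal 6 and −0.478 without CON animals 6 and 8. In HOX their *r* was −0.346 (exact permutation *P* = 0.438, adjusted *P* = 0.556; rho = 0.036, exact permutation *P* = 0.963). HOX animal 1 set that sign, with *r* = 0.564 without it and 0.699 without HOX animals 1 and 6.

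*NUPR1* had a negative *r* with *SLC38A2* and with *SLC7A1* in both groups. With *SLC38A2* it was −0.620 in CON (exact permutation *P* = 0.0766, adjusted *P* = 0.307; rho = −0.483, exact permutation *P* = 0.194) and −0.505 in HOX (exact permutation *P* = 0.264, adjusted *P* = 0.513; rho = −0.500, exact permutation *P* = 0.267). In CON *r* was −0.165 without animal 6 and −0.266 without animals 6 and 8. In HOX it was −0.156 without animal 1 and −0.694 without animals 1 and 6. With *SLC7A1* it was −0.389 in CON (exact permutation *P* = 0.299, adjusted *P* = 0.513; rho = −0.400, exact permutation *P* = 0.291) and −0.630 in HOX (exact permutation *P* = 0.116, adjusted *P* = 0.347; rho = −0.643, exact permutation *P* = 0.139). With 1 liver left out, these ranged from −0.636 to −0.174 in CON, the latter without animal 7. In HOX they ranged from −0.888 to −0.411, the latter without animal 5, and the value was −0.538 without animal 1. Without 2 livers they were −0.317 in CON (animals 1 and 4) and −0.146 in HOX (animals 1 and 5), and 0 of the 4 relations passed over all livers of a group.

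Other ATF4 targets were taken from a list of 45 genes, of which 7 could be named and tested, the 4 genes above among them, while the other 38 were not analysed here. The further 3 are *PSAT1* and *PSPH*, enzymes of serine synthesis, and *YARS1*, the tyrosyl-tRNA synthetase. *PSAT1* lay between 46.0 and 66.7 CPM in CON, with a median of 49.8, and between 13.7 and 46.1 in HOX, with a median of 23.5. Only HOX animal 5 reached the CON range. *PSPH* ranged from 18.0 to 54.7 CPM in CON (median 31.6) and from 11.8 to 26.4 in HOX (median 18.9), and *YARS1* from 34.9 to 55.0 in CON (median 45.1) and from 27.9 to 67.8 in HOX (median 36.5). The highest *YARS1* value was that of HOX animal 1. Over the 7 genes, 3 were higher and 4 lower in HOX. The median was −0.15, the value of *YARS1*. The HOX mean of *YARS1* was 39.5 CPM, or 34.7 without HOX animal 1, against 43.9 in CON. With edgeR 0 of 7 passed in either direction, while 6 had an unadjusted *P* under 0.05 and 5 passed with DESeq2. Over all 8580 genes tested these counts were 5 (0.0583%), 1022 and 237 (2.76%). Without HOX animal 1, chosen after seeing the data, DESeq2 called 7 of 7, beside 524 of 8576 genes (6.11%). The 7 genes all come from the supplementary table of the same livers, and 4 of them are the genes chosen above, so nothing is read from their counts.

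Correlations of the 4 genes with *PSAT1* and *PSPH* made 16 relations, 0 of which passed after adjustment. The relation of *SLC38A2* with *PSAT1* in HOX was the 1 of 16 that had an unadjusted *P* under 0.05, with *r* = −0.735 (exact permutation *P* = 0.0373, adjusted *P* = 0.412; rho = −0.500, exact permutation *P* = 0.267; *n* = 7). It was −0.452 without HOX animals 1 and 6, and −0.500 without HOX animal 1 alone. In CON the same pair had *r* = −0.572 (exact permutation *P* = 0.125, adjusted *P* = 0.412; rho = 0.050, exact permutation *P* = 0.912; *n* = 9), which turned to 0.476 without CON animals 6 and 8. For *NUPR1* and *PSAT1*, *r* was 0.626 in CON (exact permutation *P* = 0.0827, adjusted *P* = 0.412; rho = 0.400, exact permutation *P* = 0.291) and 0.651 in HOX (exact permutation *P* = 0.121, adjusted *P* = 0.412; rho = 0.571, exact permutation *P* = 0.200). In CON *r* was −0.0042 without animals 6 and 7, and animal 6 was the highest CON liver for both genes. In HOX *r* was 0.501 without animal 1 and 0.463 without animals 1 and 7.

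Erythroid genes were examined because glycine is a substrate of haem synthesis. Of 14 listed, 4 could be named: *EPOR*, the erythropoietin receptor; *TFRC*, the transferrin receptor; *ANK1*, a protein of the red cell membrane skeleton; and *CPOX*, an enzyme of haem synthesis. Their summed expression, led by *ANK1*, was 170 CPM in the lowest CON liver, 248 at the median and 533 in the highest. In HOX it was 259, 441 and 772 CPM. HOX animals 4 and 7 were the highest livers, as for *SLC6A9*, and the groups overlapped. The other 10 erythroid genes of the list, globins among them, were not analysed here, and all 4 named genes were found through the table of genes called on these livers.

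*SLC6A9* followed the mean log2 CPM of the 4 erythroid genes closely in HOX livers. Its *r* was 0.956 (exact permutation *P* = 0.000397, adjusted over 8 relations *P* = 0.00317), and rho was 0.964 (exact permutation *P* = 0.00278, adjusted *P* = 0.0222; *n* = 7). It was the 1 of the 8 relations that passed with Pearson's *r*. How many other tested genes followed the erythroid mean as closely was not examined. Without HOX animals 1 and 4, the farthest from the median, *r* was 0.981, and without HOX animal 1 alone 0.939. In CON, *r* was 0.700 (exact permutation *P* = 0.0371, adjusted *P* = 0.0991; rho = 0.650, exact permutation *P* = 0.0666; *n* = 9). It was 0.352 without CON animals 1 and 5, and lay between 0.618 and 0.865 with 1 liver left out.

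*NUPR1* ran against the erythroid mean in CON, with *r* = −0.773 (exact permutation *P* = 0.0135, adjusted *P* = 0.0539) and rho = −0.817 (exact permutation *P* = 0.0108, adjusted *P* = 0.0431; *n* = 9). Leaving out CON animals 1 and 5 gave *r* = −0.864. In HOX the coefficient over the 7 livers was 0.030 (exact permutation *P* = 0.948; rho = −0.036, exact permutation *P* = 0.963), and it was −0.336 without HOX animal 1, −0.416 without HOX animal 4, 0.400 without HOX animal 5 and −0.964 without HOX animals 1 and 4.

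*SLC7A1* had *r* = 0.436 with the erythroid mean in CON (exact permutation *P* = 0.239, adjusted *P* = 0.425; rho = 0.317, exact permutation *P* = 0.410), or 0.228 without CON animal 1 and 0.242 without CON animals 1 and 5, and 0.442 in HOX (exact permutation *P* = 0.342, adjusted *P* = 0.456; rho = 0.179, exact permutation *P* = 0.713). Without HOX animal 1 the coefficient in HOX was 0.873 (exact permutation *P* = 0.00556, adjusted *P* = 0.0222; *n* = 6) and passed, whereas without HOX animal 5 it was −0.024 (exact permutation *P* = 0.968, adjusted *P* = 0.968; *n* = 6). It was 0.910 without HOX animals 1 and 4. *SLC38A2* gave *r* = 0.422 in CON (exact permutation *P* = 0.266, adjusted *P* = 0.425; rho = 0.533, exact permutation *P* = 0.148), or 0.083 without CON animal 6 and 0.731 without CON animals 1 and 5, and −0.270 in HOX (exact permutation *P* = 0.591, adjusted *P* = 0.676; rho = −0.036, exact permutation *P* = 0.963). The latter was 0.549 without HOX animal 1, −0.523 without HOX animal 5 and 0.474 without HOX animals 1 and 4. HOX animal 1 had the lowest erythroid mean of the HOX livers, at 5.53 log2 CPM, which lay inside the CON range of 4.95 to 6.64, and the highest *SLC38A2* and *SLC7A1* values of the 16 livers.

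**Figure D2:**
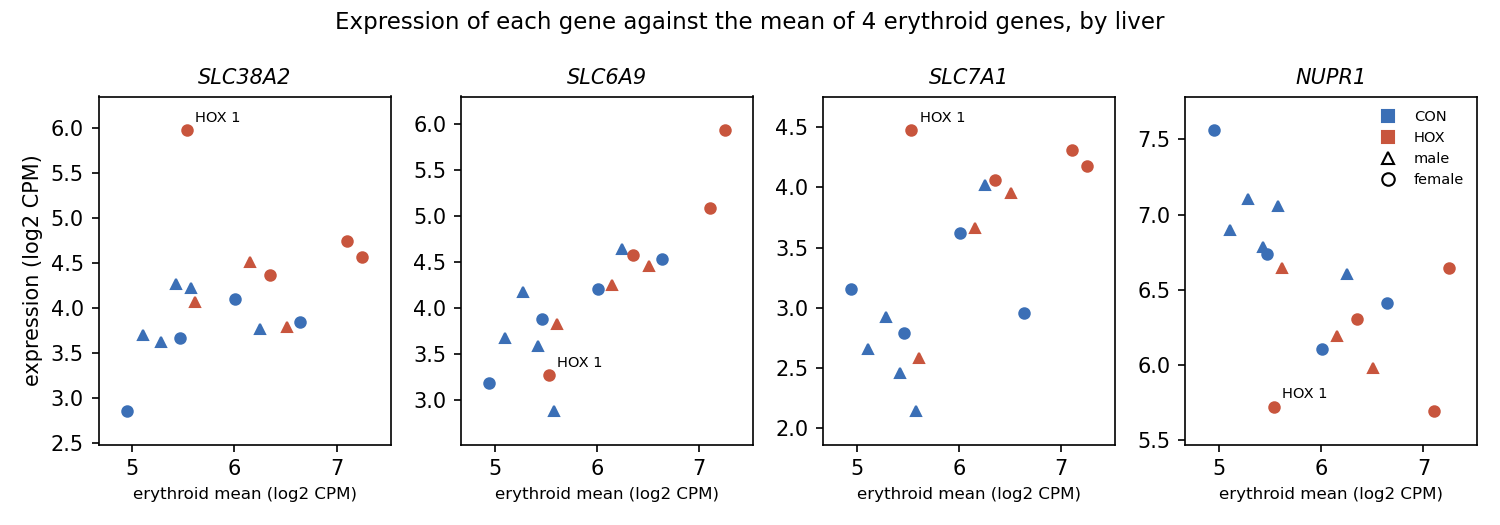
Expression of each gene (log2 CPM) against the mean log2 CPM of *ANK1*, *CPOX*, *EPOR* and *TFRC* in 16 livers. Blue points are CON and red points HOX, triangles male and circles female, and HOX animal 1 is named. *SLC6A9* follows the erythroid mean in HOX (*r* = 0.956), HOX animal 1 included. That liver has the highest *SLC38A2* and *SLC7A1* values of the 16 livers, while its *NUPR1* value lies next to that of HOX animal 7.

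With the erythroid mean as a covariate, the log2 fold change of HOX against CON was −0.13 (SE 0.230) for *SLC6A9*, 0.66 (SE 0.294) for *SLC7A1*, 1.00 (SE 0.299) for *SLC38A2* and −0.42 (SE 0.227) for *NUPR1*. When HOX animal 1 was also left out, a combination chosen after seeing the data, it was 0.02 (SE 0.248) for *SLC6A9* and 0.22 (SE 0.302) for *SLC7A1*. It was then 0.30 (SE 0.230) for *SLC38A2* and −0.19 (SE 0.213) for *NUPR1*. Nothing is read from these values, since the 4 genes were chosen from this comparison. The erythroid genes were themselves found through their difference between the groups, so the covariate carries part of that difference by construction, and the part of erythroid cells in the values of the 4 genes was not tested.

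Differences between male and female fetuses were tested over all 16 livers with treatment in the model, a comparison that the choice of genes did not use. With edgeR, 0 of the 4 genes passed at an adjusted *P* under 0.15, beside 2 of 8580 genes (0.0233%), while 267 genes, 0 of the 4 among them, had an unadjusted *P* under 0.05. DESeq2 called 7 of 8566 genes (0.0817%) and 0 of the 4. The log2 difference, male minus female, was −0.43 (SE 0.266) for *SLC7A1*, −0.42 (SE 0.332) for *SLC6A9* and −0.25 (SE 0.283) for *SLC38A2*, each with an edgeR adjusted *P* of 0.974. For *NUPR1* it was 0.12 (SE 0.195, adjusted *P* = 0.987). These values moved with single livers. That of *SLC38A2* was −0.01 (SE 0.195) without HOX animal 1 and −0.42 without CON animal 6, and that of *SLC6A9* was −0.19 without HOX animal 4 and −0.57 without CON animal 1. *SLC7A1* was at −0.27 (SE 0.247) without HOX animal 5 and −0.68 (SE 0.196) without CON animal 1, where its edgeR *P* was 0.00333 before adjustment and 0.833 after it. *NUPR1* was at 0.03 without CON animal 7 and 0.32 without CON animal 6. In CON livers alone the difference was 0.25 (SE 0.249) for *SLC38A2*, −0.13 (SE 0.351) for *SLC6A9*, −0.17 (SE 0.367) for *SLC7A1* and 0.08 (SE 0.253) for *NUPR1*.

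Among HOX livers, *SLC7A1* was at 16.7, 18.0, 19.7 and 22.2 CPM in the 4 females and at 5.91, 12.6 and 15.4 in the 3 males. The female values all lay above the male values, in 1 of the 4 genes, beside 363 of 8580 genes whose males and females did not overlap in HOX (4.23%). *SLC7A1* passed the filter on low counts mainly through HOX, with 6 HOX and 2 CON livers at the minimum. Nothing is therefore read from its place beside that share. *SLC38A2* was at 20.6, 23.7, 26.8 and 62.9 CPM in HOX females and at 13.7, 16.6 and 22.8 in HOX males, which overlapped. The difference in response between the sexes was tested as a sex by treatment interaction, in which 0 of the 4 genes and 0 of 8580 genes (0%) passed with edgeR, 281 genes had an unadjusted *P* under 0.05, *SLC38A2* among them, and DESeq2 called 6 of 8572 genes (0.07%) and 0 of the 4. The interaction of *SLC38A2* was −1.18 (log2 fold change in males minus that in females, SE 0.486, adjusted *P* = 0.999). Fitted apart, it was 1.42 (SE 0.401) in females and 0.22 (SE 0.218) in males. Without HOX animal 1 the interaction was −0.67 (SE 0.367, adjusted *P* = 1.00). For *SLC6A9* it was −0.68 (SE 0.658), −0.97 without HOX animal 1, which put it past *SLC38A2*, and −0.17 without HOX animal 4. For *SLC7A1* it was −0.60 (SE 0.524), −0.18 without CON animal 1 and −0.29 without HOX animal 5.

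The transporters, and *NUPR1* in CON, were among the more variable genes of these livers, by percentiles not adjusted for expression level. The SD of log2 CPM between CON livers was 0.59 for *SLC6A9*, at percentile 93.9 of the genes tested, 0.58 for *SLC7A1* (percentile 93.7), 0.42 for *SLC38A2* (percentile 86.0) and 0.42 for *NUPR1* (percentile 85.6). Between HOX livers it was 0.86 for *SLC6A9* (percentile 96.4), 0.70 for *SLC38A2* (percentile 92.9), 0.63 for *SLC7A1* (percentile 90.9) and 0.39 for *NUPR1* (percentile 72.9). *PSAT1* had a SD of 0.17 in CON (percentile 22.1) and 0.64 in HOX (percentile 91.3). For *PSPH* it was 0.59 in CON (percentile 93.8) and 0.46 in HOX (percentile 81.2). *YARS1* had 0.19 in CON (percentile 31.9) and 0.44 in HOX (percentile 79.2). In CON the 4 erythroid genes lay between percentile 92.0 (*ANK1*) and 95.9 (*EPOR*), and in HOX between 88.9 (*CPOX*) and 97.8 (*EPOR*). Without HOX animal 1, the SD of *SLC38A2* in HOX was 0.36.

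The genes most like each member were sought among 428 other tested genes with a symbol, by Pearson's *r* of log2 CPM centred within each group. These genes were all found through the same supplementary table. For *SLC6A9* they were *ICAM5* (*r* = 0.931 over 16 livers), *EPOR* (0.905) and *FBXO9* (0.901). Without HOX animal 1 they were *AP2A1* (0.938), *TSPO* (0.911) and *ICAM5* (0.908), so *ICAM5*, an adhesion molecule, was named both ways. *EPOR* is one of the erythroid genes above, and *TSPO* encodes a protein of the outer mitochondrial membrane.

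*SLC7A1* was most like the nucleoporin gene *NUP98* both with HOX animal 1 (*r* = 0.797) and without it (0.869). Next came *SLC11A2* (0.780), the iron transporter also known as DMT1, and *AP2A1* (0.733), a subunit of the clathrin adaptor, in 16 livers, and *STX2* (0.848) and *TXNRD2* (0.826) in 15. *SLC38A2* was most like *TXN2* (0.805), the mitochondrial thioredoxin, *NCKAP1* (0.788) and *SGPL1* (0.773), none of which was named without HOX animal 1. In the 15 livers they were *CARMIL1* (0.840), *C4B* (0.724) and *ZNF395* (0.704). *NUPR1* was most like *ADAMTSL2* (0.713), *GALT* (0.711) and the clotting factor gene *F7* (0.709), and in 15 livers *CHID1* (0.866), *SWI5* (0.800) and *NCBP2* (0.780).

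The members were not among the genes most like each other, and the nearest pair was *SLC6A9* and *SLC7A1*. Of the 8579 other tested genes ranked by likeness to *SLC7A1*, *SLC6A9* was number 742 (*r* = 0.462) and, without HOX animal 1, number 193 (*r* = 0.717). Ranked by likeness to *SLC6A9*, *SLC7A1* was number 972, and number 408 without HOX animal 1. Among genes ranked by likeness to *SLC38A2*, *SLC7A1* was number 2655 (*r* = 0.203), *SLC6A9* number 5713 (*r* = −0.193) and *NUPR1* number 7868 (*r* = −0.536). Without HOX animal 1 the order of the transporters turned, with *SLC6A9* number 2258 (*r* = 0.266), *SLC7A1* number 4357 (*r* = −0.0028) and *NUPR1* number 7667 (*r* = −0.472). *PSAT1* was number 487 in likeness to *NUPR1* (*r* = 0.532), and number 945 without HOX animal 1 (*r* = 0.453). It stood far lower in likeness to *SLC38A2*, at number 8374 (*r* = −0.671) or 7453 without HOX animal 1 (*r* = −0.430), and to *SLC7A1*, at number 7784 (*r* = −0.431) or 7315 (*r* = −0.341). In likeness to *SLC6A9* it was number 2406 (*r* = 0.221) or 5051 (*r* = −0.101).

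Of other solute carriers, 4 could be named, 2 higher and 2 lower in HOX with a median of 0.06. With edgeR 0 of 4 passed, while 4 had an unadjusted *P* under 0.05 and 2 passed with DESeq2. Over all 8580 genes these counts were 5 (0.0583%), 1022 and 237 (2.76%). Without HOX animal 1, chosen after seeing the data, DESeq2 called 4 of the 4, beside 524 of 8576 genes (6.11%). These 4 carriers too were found through the table of genes called on these livers, and nothing is read from these counts. *SLC11A2* measured 11.5 ± 2.79 CPM in CON (SD, *n* = 9) and 17.0 ± 3.23 in HOX (SD, *n* = 7), and *SLC29A1*, a nucleoside transporter, 193 ± 31.6 and 245 ± 48.2. The zinc transporter *SLC39A7* was at 165 ± 12.8 CPM in CON and 141 ± 19.3 in HOX, and the hepatocyte anion transporter *SLC22A7* at 393 ± 80.1 and 255 ± 57.9. Markers of other cell types were few. *CD163* of macrophages was at 323 ± 58.1 CPM in CON and 213 ± 83.3 in HOX, or 239 ± 54.6 without HOX animal 1 (SD, *n* = 6). *CD34* of endothelial and stem cells was at 13.7 ± 6.97 in CON and 28.3 ± 12.8 in HOX, or 29.4 ± 13.6 without that liver. The fibroblast genes *ASPN* and *TGFBI* summed to 179 ± 20.6 and 161 ± 35.2, but they differed in direction. *ASPN* was at 58.2 ± 9.64 CPM in CON and 75.9 ± 10.5 in HOX, and *TGFBI* at 120.4 ± 17.0 and 85.3 ± 31.3, or 95.2 ± 18.9 without HOX animal 1 (SD, *n* = 6). Their part in the values of the 4 genes was not tested.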

How the data were processed

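Per the labels and the methods of the study, the authors aligned paired reads with STAR 2.7.10b to ARS-UI_Ramb_v1.0, a sheep assembly. They deposited raw counts per gene, neither normalized nor filtered. The counting rule and the use of strand are not given in the sources used here, so counts of overlapping or near-identical genes are uncertain. Group, animal number and sex came from the labels. Because the counts are listed by identifier, symbols were looked up in a supplementary gene table of the study (487 identifiers, 438 with a symbol), which holds genes called on these livers. Its other values were not used. The members and lists were chosen with earlier results of these data known.

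Of 26478 genes, 8580 had at least 250 reads in at least 8 livers, with 97.7% of the reads. They were fitted with the quasi-likelihood test of edgeR 4.0.16 in R 4.3.3 (TMM, robust=FALSE), with Benjamini-Hochberg adjustment over all tested genes and a threshold of 0.15. DESeq2 1.42.0 was an alternative. Each SE is the unshrunken coefficient divided by the root of F. Log2 CPM used a prior count of 2. Correlations were tested with two-sided exact permutation tests (Python 3.11.15, numpy 2.4.6), adjusted within each family at a threshold of 0.05. Genes named are the 4 members, the listed genes with a symbol, and the 3 genes most like each member with and without HOX animal 1. Tests were checked on simulated counts. No pair of libraries was a duplicate (lowest chi-square per degree of freedom 63.2). Alternatives covered the tool, normalization, filter, covariates, animal number as a block, single sexes and leaving out each liver.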

Additional observations from a re-analysis of the deposited data

Results flagged for a closer look

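Log2 CPM of the 4 genes, of *PSAT1*, *PSPH* and *YARS1*, and of the erythroid mean was searched for a liver far from the rest of its group. In 3 of the 16 groups searched, the gap of 1 liver to its neighbour took an unusually large share of the whole range. Chance does this in about 1 in 20 groups of normally distributed values. The 16 groups share the same livers, so 3 of 16 cannot be set against that rate. CON animal 6 was low for *SLC38A2*, at 2.85 log2 CPM, and high for *PSAT1*, at 6.06. HOX animal 5 was low for *SLC7A1*, at 2.58, only just past the limit, whereas HOX animal 1, at 5.98 for *SLC38A2*, fell just short of it. The cause was not tested.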

How the results depend on the processing

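Of 115 alternative values of the 4 log2 fold changes, 109 kept their sign and moved by less than 1 SD between livers. That SD was 0.56 for *SLC38A2*, 0.72 for *SLC6A9*, 0.60 for *SLC7A1* and 0.41 for *NUPR1*. The fold changes themselves were 0.92, 0.75, 0.92 and −0.65, so the count does not show that they are stable. It includes 0.55 for *SLC38A2* without HOX animal 1 and 0.40 for *SLC6A9* without HOX animal 4. In male livers only *SLC38A2* was 0.22 (SE 0.218), *SLC6A9* 0.30 (SE 0.333), *SLC7A1* 0.52 (SE 0.433) and *NUPR1* −0.60 (SE 0.174). With the erythroid mean as a covariate *SLC6A9* was −0.13, and with HOX animal 1 also left out, chosen after seeing the data, the values were 0.30 (*SLC38A2*), 0.017 (*SLC6A9*), 0.22 (*SLC7A1*) and −0.19 (*NUPR1*). *SLC7A1* was not tested with 250 reads in more than 8 livers. The 5 genes called for HOX against CON became 237 with DESeq2 (524 without HOX animal 1, chosen after seeing the data), 1 with 10 reads in 7 livers, 1 with no filter, 1 with the erythroid covariate (0 without HOX animal 1), 0 in females and 2 in males. They ranged from 1 to 11 with 1 liver left out, 11 being without HOX animal 1. The 2 calls for sex became 7 with DESeq2, 1 with 250 reads in more than 8 livers and 0 in CON only, where *SLC38A2* was 0.25. The 0 calls for the interaction became 6 with DESeq2, and ranged from 0 to 3, the 3 being without HOX animal 4.

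With animal number as a replicate block, 0 genes were called, and the 4 fold changes were 0.83 (*SLC38A2*), 0.61 (*SLC6A9*), 0.85 (*SLC7A1*) and −0.60 (*NUPR1*). The numbers only name animals. Same-numbered livers correlated between −0.314 and 0.153 in their deviations from the group means, and 0 of 7 correlated best with their own number.

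With 1 liver left out, the interaction of *NUPR1*, which was 0.06 (SE 0.406) over all livers, ranged from −0.32 to 0.26. Coefficients ranged from −0.525 to 0.445 for *SLC38A2* with *SLC6A9* in CON and from −0.514 to 0.564 in HOX, from −0.093 to 0.739 for *SLC6A9* with *SLC7A1* in HOX, and from −0.140 to 0.622 for *SLC6A9* with *NUPR1* in HOX. Against the erythroid mean in CON they ranged from 0.618 to 0.865 (*SLC6A9*) and from −0.813 to −0.703 (*NUPR1*), passing without CON animal 4 (both genes) or 7 (*NUPR1*). In HOX they ranged from −0.523 to 0.549 (*SLC38A2*), from −0.024 to 0.873 (*SLC7A1*) and from −0.416 to 0.400 (*NUPR1*), and from 0.939 to 0.971 for *SLC6A9*, which passed throughout. Spearman's rho was −0.050 (CON) and 0.036 (HOX) for *SLC38A2* with *SLC6A9*, and −0.817 (CON, passing) and −0.036 (HOX) for *NUPR1* with the erythroid mean. With RLE scaling the latter were −0.784 (CON, passing) and −0.0066 (HOX). The cause of these shifts was not tested.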

Other observations

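Among the genes called outside the lists, chosen here after their values were seen, the 2 that passed for sex have no symbol in the sources used. ENSOARG00020023139 was at 36.0 CPM in males and 59.2 in females (log2 difference −0.72, SE 0.070, edgeR adjusted *P* = 9.4e-05), and ENSOARG00020022577 at 7.18 and 13.1 (−0.88, SE 0.133, adjusted *P* = 0.0206).

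Precision is limited by 9 and 7 livers per group, by 3 males in HOX, and for *SLC7A1* by counts as low as 104 reads. Symbols were known only for genes that the study called on these livers, so most ATF4 targets, the globins and most cell type markers were not analysed here. Correlations within 5 to 9 livers have wide uncertainty, and a *P* that misses its threshold does not show that genes vary independently. Counts of mRNA do not measure protein or amino acid uptake, and *ATF4* mRNA was not analysed here.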
